A study of Homo sapiens with 2 samples.

Results

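Carboxypeptidase E (CPE) and 9 further genes of the neuropeptide secretory pathway were followed in G401 cells, a human line derived from a rhabdoid kidney tumor. The 10 genes, out of 23452 gene symbols with a value, were chosen by name as processing enzymes and granins of dense-core vesicles, in view of the large difference of CPE between the libraries, so the values of CPE are a description and not a test. RNA was sequenced from 2 cultures, 1 given a control guide (the control library) and 1 given the guide sg1 against HOXB13, a posterior homeobox transcription factor (the sg1 library). Both were of the same line, grown in medium with 15% serum, and differed per the labels only in the CRISPR guide. The labels did not say whether either was a single clone or a pool, nor how long after the guide was introduced the cells were harvested. With 1 library per group, replicates were lacking and p-values were not computed.

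Peptide hormones and neuropeptides are made as longer precursors that are cut and trimmed on the way to the cell surface. Prohormone convertases cut at pairs of basic residues, CPE removes the basic residues left at the new end, and PAM turns a terminal glycine into an amide. Granins such as CHGA, CHGB and SCG2 help to pack the products into dense-core vesicles, which are released on a signal in neurons and endocrine cells. Many other cells express single parts of this route, since convertases of the furin type and CPD act on proteins that are secreted all the time.

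The level of a gene was its FPKM, fragments scaled by transcript length and library size, and the ratio was log2 of (FPKM + 1) in the sg1 library over (FPKM + 1) in the control library, which understates the ratio of low genes. A gene was taken as tested, that is compared, at an FPKM of at least 1 in either library, giving 11970 genes, and was called higher or lower from 2-fold on, a rule of size. Of all tested genes 4.51% were lower and 4.25% higher, the shares to set beside the counts of each list below. The steps between low FPKM values gave a depth of some 23.95 M reads for the control and 23.46 M for the sg1 library. HOXB13 itself was at 14.6 FPKM in the control and 4.50 in the library with its guide (log2 −1.50). Of the markers of the line, the filament genes VIM, KRT8 and KRT18 summed with SMARCA4 and SMARCB1 to 2920 and 4052 FPKM, and SMARCB1, whose loss defines most rhabdoid tumors, was at 0.113 and 0.0577. None of 5 endothelial and none of 8 kidney tubule markers reached 1 FPKM. Of 6 leukocyte markers CD68, which many other cells express in lysosomes, was at 102 and 111 FPKM, while CD3E was listed at 0 in both libraries and PTPRC was at 0.0165 and 0.

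CPE was abundant in the control library and near the limit for testing in the sg1 library, and it was the lowest of all 11970 tested genes by ratio. Its locus spans positions 166300097 to 166419482 of chromosome 4 in hg19. The control library had 111 FPKM of it and the sg1 library 1.57 FPKM (log2 −5.45), a difference of 70.9-fold without the pseudocount and 43.6-fold with it. With a transcript of 2421 nt these values came from about 5903 and 82 reads, so the sg1 level was 1.41% of the control (exact 95% interval from 1.13 to 1.76%, for counting error alone). In bulk RNA, fewer cells with CPE and less of its RNA per cell cannot be told apart. By level CPE ranked 677 among the tested genes of the control library and 10961 in the other. The only other table entry inside the locus was the microRNA gene MIR578.

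**Figure D1:**
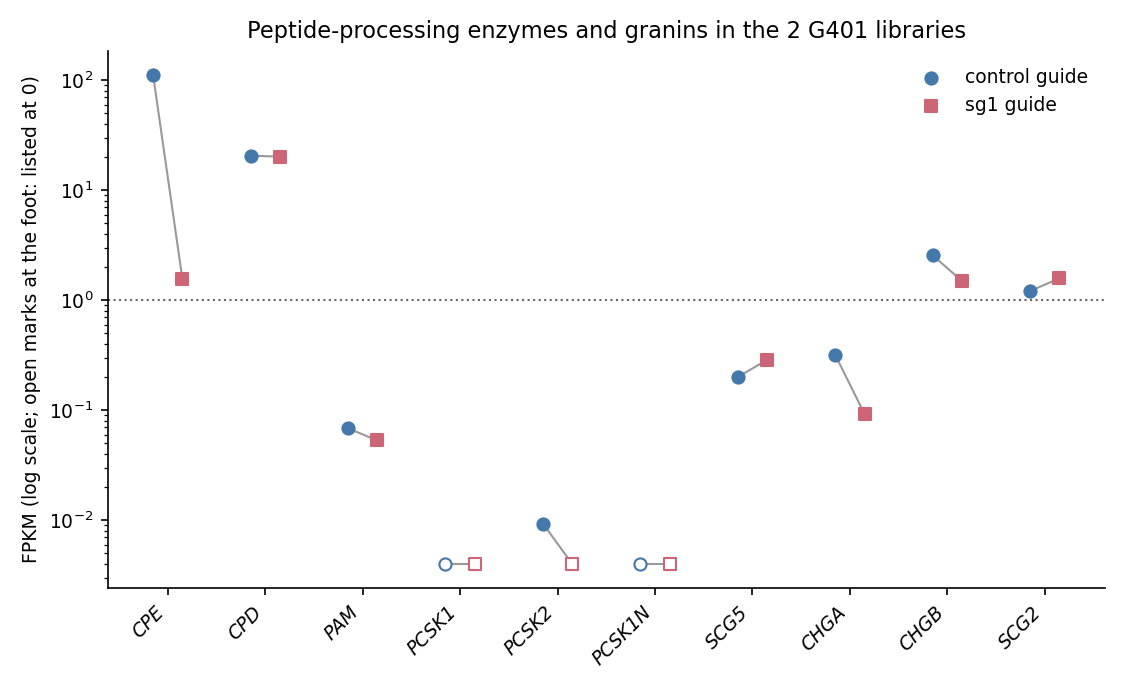
FPKM of the 10 pathway members (log axis) in the control library (circles) and the sg1 library (squares), 1 library each; open marks at the foot stand for values listed at 0, and the dotted line marks 1 FPKM. CPE goes from 111 to 1.57, CPD stays near 20, and 6 of the 10 genes lie below 1 in both libraries.

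The nearest relative of CPE among the members had almost the same level in both libraries. CPD, a membrane carboxypeptidase of the trans-Golgi network that trims the same kind of basic ends, was at 20.6 FPKM in the control and 20.2 in the sg1 library (log2 −0.03), about 4527 and 4352 reads. The sg1 level was 98.1% of the control (95% interval from 94.1 to 102%). The sum of the 10 members was 136 FPKM in the control and 25.2 in the sg1 library. CPE made up 81.7% of it in the first and 6.20% in the second, and CPD 15.1% and 79.9%, so the order of these carboxypeptidases was turned round.

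The convertases and the amidating enzyme that act with CPE in endocrine cells were almost absent from both libraries. PCSK1, which makes the first cuts in many prohormones, and PCSK1N, which encodes its inhibitor proSAAS, were listed at 0 in both. PCSK2, which makes later cuts, was at 0.00931 FPKM in the control, about 1 read, and listed at 0 in the sg1 library. A count of 3 reads, the limit that a count of 0 allows, would be 0.0256 FPKM for PCSK1 and 0.147 for PCSK1N in the control. SCG5, which encodes the PCSK2 chaperone 7B2, had 0.200 FPKM in the control against 0.286 in the other library, about 5 and 7 reads. PAM had 0.0683 and 0.0530 FPKM, about 9 and 7 reads, which is 77.6% of the control level with an interval of 25.1 to 240%. At these counts no difference was detectable for PAM or SCG5.

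The granins were low as well, and none of them was 2-fold apart on the scale used. CHGB, chromogranin B, had 2.55 FPKM in the control against 1.49 in the sg1 library (log2 −0.51), about 144 and 82 reads, or 58.5% of the control level (95% interval from 43.8 to 76.8%). SCG2, the precursor of secretoneurin, went the other way at 1.21 and 1.58 FPKM (log2 0.22), an interval of 93.9 to 181% of the control level, which includes 100%. CHGA, chromogranin A, which is used to recognise neuroendocrine tumors, was at 0.317 and 0.0924 FPKM, about 14 and 4 reads. Its level in the sg1 library was 29.2% of the control, with an interval of 6.99 to 92.9% and both values under the limit for testing.

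In all, 4 of the 10 members were tested (CPE, CPD, CHGB and SCG2), 1 was at least 2-fold lower and none at least 2-fold higher, where 4.51% of all tested genes were lower and 4.25% higher. CPE alone made up the lower count, and it was the gene for which the members were chosen, so nothing is read from that share. The median log2 ratio of the 4 was −0.27, and −0.03 for the 3 without CPE, beside −0.05 over all tested genes. By these levels the libraries did not hold a complete neuroendocrine route: of 8 neuroendocrine markers only SYP, a synaptic vesicle protein, passed 1 FPKM (1.79 and 2.84), NEUROD1 was listed at 0 in both libraries, and the 8 summed to 2.32 and 3.28 FPKM.

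**Figure D2:**
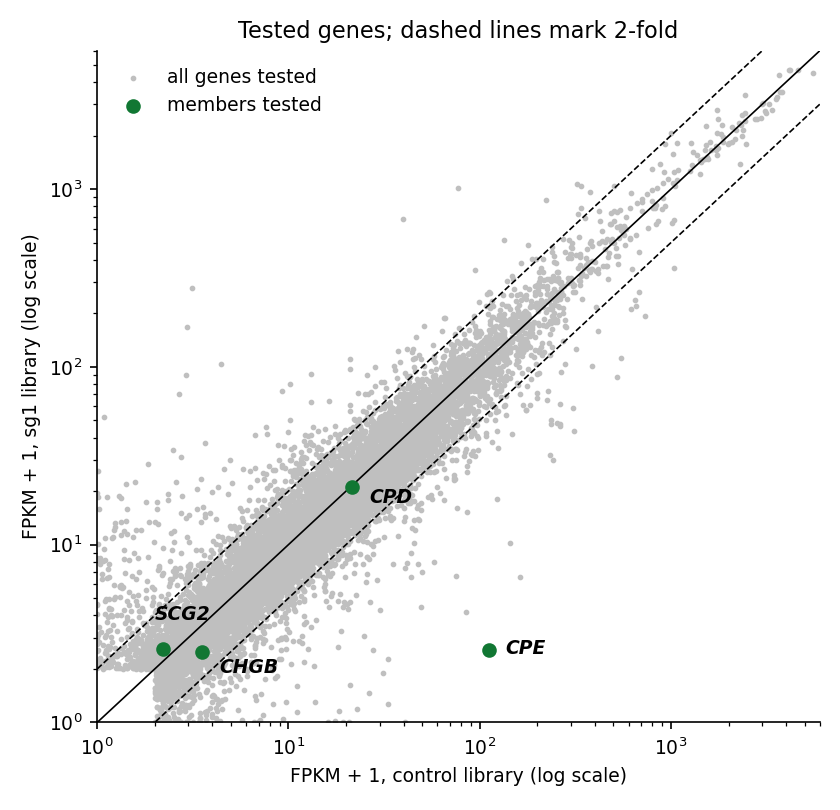
FPKM + 1 of all 11970 tested genes (grey) in the control library (x, log scale) and the sg1 library (y, log scale), with the 4 tested members in green; the solid line marks equal values and the dashed lines 2-fold. CPE lies far below the lower line at 111 and 1.57 FPKM, whereas CPD, CHGB and SCG2 lie between the lines.

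The expressed genes next to CPE on chromosome 4 were mostly lower too. They were taken by position, after the value of CPE was known. Of the 4 tested genes within 500 kb of CPE, 3 were at least 2-fold lower. TLL1, which encodes a tolloid-like metalloprotease and starts 375 kb after the end of CPE, had 10.1 FPKM in the control against 0.141 in the sg1 library (log2 −3.28), a 71.2-fold difference without the pseudocount beside 70.9-fold for CPE. KLHL2, which encodes a kelch adaptor of a ubiquitin ligase and ends 55.8 kb before CPE, had 7.18 and 0.982 FPKM (log2 −2.04). TMEM192, which encodes a lysosomal membrane protein and lies 266 kb before CPE, had 14.2 and 6.51 FPKM (log2 −1.01), only just past 2-fold. The counts of genes around CPE were not repeated under other scalings. Centring on the median log2 ratio of all tested genes (−0.05) would put TMEM192 within 2-fold, so the count of 3 depends on the scaling. The gene nearest to CPE did not share the direction: MSMO1, an enzyme of cholesterol synthesis 35.8 kb before CPE, had 13.8 FPKM in the control against 26.7 in the sg1 library (log2 0.90).

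Genes at least 2-fold lower were fewer farther out, and the sides of CPE differed. From 500 kb to 10 Mb 25 genes were tested on the 2 sides together, with a median log2 ratio of −0.13. Of these 2 were at least 2-fold lower (AADAT at 1.88 and 0.156 FPKM, SAP30 at 24.0 and 11.2), both after CPE. The 1 higher gene lay before it (TDO2 at 6.88 and 26.8). At log2 −1.04 SAP30 too would be within 2-fold after centring on the median of all tested genes. After TLL1 all tested genes of the window but C4orf27 (log2 0.11) were below 0, down to −1.32 for AADAT. Before TMEM192 the ratios lay on both sides of 0, from −0.62 for TMA16 to 1.82 for TDO2. The next tested gene before TMEM192 was TMA16, 1.86 Mb from CPE, at 39.7 and 25.4 FPKM (log2 −0.62), and the next after TLL1 was CBR4, 3.49 Mb from CPE, at 14.1 and 9.41 (log2 −0.54). On the whole chromosome 31 of 406 tested genes (7.64%) were at least 2-fold lower and 16 higher, where 4.51% of all tested genes were lower and 4.25% higher. Copy number and DNA methylation were not measured, so their part in these levels was not tested.

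**Figure D3:**
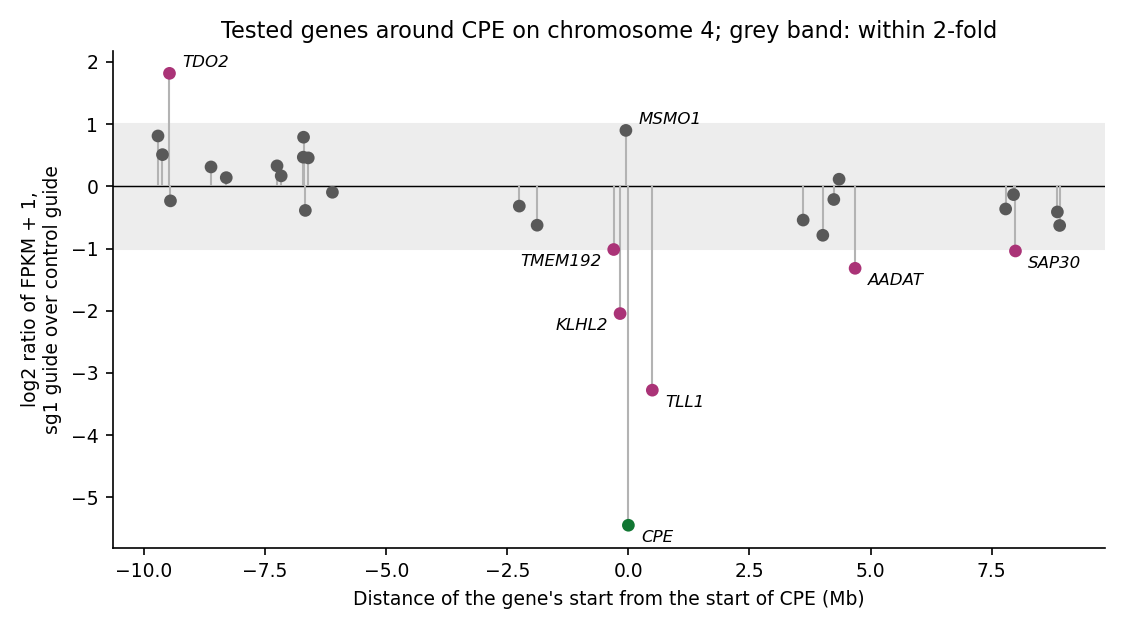
Log2 ratio of FPKM + 1 (sg1 guide over control guide, y) of the 30 tested genes whose start lies within 10 Mb of the start of CPE, against that distance in Mb (x); the grey band marks ratios within 2-fold. CPE, TLL1, KLHL2 and TMEM192 lie below the band close to 0 Mb, and MSMO1 lies above 0 among them.

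The upstream sequences of CPE, its paralog CPD and NTS are shown because CPE had the lowest ratio of all tested genes, NTS the lowest of the peptide precursors described below, and CPD was within 2-fold. They are the 250 bases before the RefSeq start of each gene in GRCh38.p14, 5′ to 3′ on the plus strand, at chr4:165378758-165379007 for CPE, chr17:30378677-30378926 for CPD and chr12:85874045-85874294 for NTS. For CPD the first of its RefSeq starts is shown. Capitals mark TGACG or its reverse complement CGTCA, the core letters of the cAMP response element.
CPE: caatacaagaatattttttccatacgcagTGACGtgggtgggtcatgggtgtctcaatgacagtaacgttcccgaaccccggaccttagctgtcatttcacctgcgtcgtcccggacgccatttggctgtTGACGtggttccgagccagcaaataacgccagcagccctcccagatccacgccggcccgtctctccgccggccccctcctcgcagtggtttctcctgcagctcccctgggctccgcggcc
CPD: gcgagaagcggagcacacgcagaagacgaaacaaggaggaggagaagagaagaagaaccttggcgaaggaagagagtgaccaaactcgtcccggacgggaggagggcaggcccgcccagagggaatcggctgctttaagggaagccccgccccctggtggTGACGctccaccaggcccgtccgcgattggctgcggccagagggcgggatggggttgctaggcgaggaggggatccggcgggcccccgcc
NTS: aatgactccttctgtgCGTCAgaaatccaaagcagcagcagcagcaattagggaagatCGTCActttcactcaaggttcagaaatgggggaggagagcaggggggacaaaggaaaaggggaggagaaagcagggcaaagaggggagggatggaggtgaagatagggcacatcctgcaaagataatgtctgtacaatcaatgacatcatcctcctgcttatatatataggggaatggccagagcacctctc
These letters occurred 2 times in CPE, 1 time in CPD and 2 times in NTS, and 21.2% of all 35116 RefSeq promoter windows of this length hold it on either strand. The full element TGACGTCA, the AP-1 letters TGANTCA, the stress response element TGATGNAA, the HOXB13 letters CCAATAAA and TATAAA were in none of the 3 windows, and 1.65%, 6.57%, 3.14%, 0.863% and 10.7% of all windows hold them. The GC box GGGCGG occurred 3 times in CPD and in neither of the others, against 42.6% of all windows. The CPE window was 60.4% G or C with 20 CpG, that of CPD 66.8% with 21 and that of NTS 49.2% with 2, where the median of all windows was 58% G or C. These matches are a description of the letters and not of binding.

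Other enzymes that cut or trim precursors were present at moderate levels in both libraries. Of 7 further proprotein convertases 4 were tested and none was 2-fold apart on the scale used, with a median log2 ratio of 0.04. FURIN, which cuts in the Golgi network of most cells, was at 14.4 FPKM in the control and 15.6 in the sg1 library. MBTPS1, the site-1 protease, was at 22.7 and 22.4, PCSK7 at 7.68 and 13.4, and PCSK4, best known from germ cells, at 2.32 and 0.813. Without the pseudocount PCSK4 was 2.86-fold lower in the sg1 library. Among 19 further carboxypeptidases 7 were listed at 0 in both libraries and 4 were tested, of which 1 was higher and none lower past 2-fold. That was CPQ, a secreted carboxypeptidase, at 0.0246 FPKM in the control and 2.46 in the sg1 library (log2 1.76, but 0.57 with a pseudocount of 5 FPKM). CPQ was tested through the sg1 library alone, so nothing is read from its low control level. CPXM1, a family member thought to lack enzyme activity, was at 18.9 and 13.1, and the lysosomal enzymes CTSA and SCPEP1 were at 13.0 and 12.8 in the control against 21.8 and 22.2. CTSA overlaps NEURL2 and PLTP in the tables, so its reads are uncertain between them.

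Peptide-modifying enzymes included CTSL1, cathepsin L, the only tested member of that list below 0. It had 19.9 FPKM in the control against 7.82 in the sg1 library (log2 −1.25, and −0.96 with that pseudocount). Cathepsin L has been described in secretory vesicles as a second route of precursor cleavage beside its work in lysosomes. The other 7 tested members were within 2-fold, and the median of the 8 was 0.41. RNPEP, which removes basic residues from the front end of peptides, was at 16.1 and 29.4 FPKM, PEPD, which splits dipeptides with proline, at 37.1 and 59.2, and TPST1, which adds sulfate to tyrosines, at 5.20 and 8.55. CTSB, cathepsin B, was at 29.7 and 42.5.

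Among peptidases that degrade neuropeptides MME was the only one past 2-fold on the scale used. MME encodes neprilysin, a cell-surface enzyme that inactivates enkephalins, tachykinins and natriuretic peptides, and it had 12.0 FPKM in the control against 89.9 in the sg1 library (log2 2.80), 7.46-fold higher without the pseudocount. The other 11 of 12 tested members were within 2-fold on that scale and the median was 0.16. ACE, which makes angiotensin II, was at 1.76 and 0.601 FPKM, 2.94-fold lower in the sg1 library without the pseudocount. ECE2, an endothelin-converting enzyme whose locus overlaps that of CAMK2N2, was at 23.1 and 13.2, while its relative ECE1 was at 16.5 and 15.3. PREP, a cytosolic enzyme that cuts after proline, was at 32.9 and 37.2, and ANPEP did not reach the limit for testing.

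The list of other granin-like proteins and vesicle residents was within 2-fold without exception among the 7 tested, with a median of −0.11. It also held ERP44 (11.4 and 10.5 FPKM) and CNIH4 (171 and 143 FPKM, log2 −0.26), which are neither. The median was the ratio of ERP44 itself. VGF, a granin-like precursor of several peptides, was the most abundant granin-type gene here at 52.4 FPKM in the control and 32.4 in the sg1 library (log2 −0.68). Its level thus exceeded that of CHGA, CHGB, SCG2 and SCG5 in both libraries. GNAS, whose locus also encodes the granin-like protein NESP55, was at 576 and 485 FPKM, and the table gives 1 value for all its products and its antisense partner overlaps it. CLU, clusterin, was at 8.98 and 13.1, NUCB1 and NUCB2, which bind calcium, at 43.1 and 17.8 in the control against 53.4 and 18.8. SCG3, which binds CHGA in granules, was at 0.0268 and 0.0278 FPKM and not tested.

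**Figure D4:**
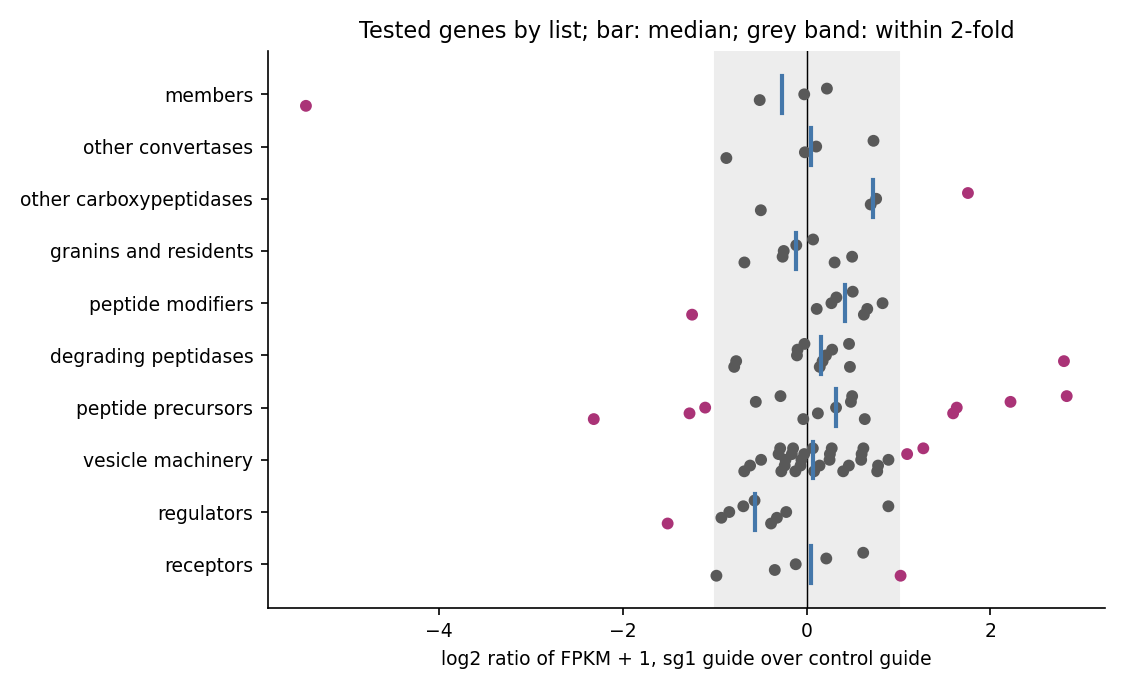
Log2 ratio of FPKM + 1 (sg1 guide over control guide) of the tested genes of each list, 1 point per gene; the blue bar is the list's median and the grey band marks ratios within 2-fold. CPE is the lowest point at −5.45, peptide precursors spread from −2.32 to 2.83, and 8 of the 9 regulators lie below 0.

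Precursors of neuropeptides and peptide hormones differed between the libraries in both directions. Of 63 on the list 25 were listed at 0 in both libraries and 15 were tested, of which 3 were lower and 4 higher past 2-fold (20% and 26.7%, beside 4.51% and 4.25% of all tested genes), with a median log2 ratio of 0.32. Of the 7 genes past 2-fold, all but NPFF reached 1 FPKM in only 1 library, the one where they were higher. These shares thus depend on the limit for testing. Low genes made up much of the list, and their reads varied. GIP had about 4 and 36 reads, whereas ADM2 had about 114 and 1 and ADCYAP1 about 36 and 264. With a pseudocount of 5 FPKM, which outweighs low values, only NTS and EDN1 of the 7 were past 2-fold. The 3 lower ones were NTS, NPFF and ADM2. NTS, the precursor of neurotensin, had 6.22 FPKM in the control against 0.451 in the sg1 library (log2 −2.32), about 155 and 11 reads. NPFF, the precursor of neuropeptide FF, had 8.01 and 2.73 (log2 −1.27). ADM2, the precursor of adrenomedullin 2, had 1.17 and 0.0111 (log2 −1.10).

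The 4 higher precursors were below 1 FPKM in the control. They were tested through the sg1 library alone, so nothing is read from their low control level. EDN1, the precursor of the vessel-constricting peptide endothelin-1, had 0.703 FPKM in the control against 11.1 in the sg1 library (log2 2.83), 15.8-fold higher without the pseudocount. KISS1, the precursor of kisspeptin, was at 3.65 FPKM in the sg1 library and listed at 0 in the control. ADCYAP1, the precursor of PACAP, had 0.474 and 3.57 FPKM (log2 1.63). GIP, an incretin of the gut, had 0.327 and 3.01 (log2 1.59), about 4 and 36 reads. The most abundant precursor in both libraries was ADM, adrenomedullin, at 32.9 and 46.3 FPKM, which stayed within 2-fold, as did BDNF at 7.84 and 5.02 and PMCH, the precursor of melanin-concentrating hormone, at 6.60 and 7.28. The locus of PMCH overlaps that of PARPBP, so its reads are uncertain between them.

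**Figure D5:**
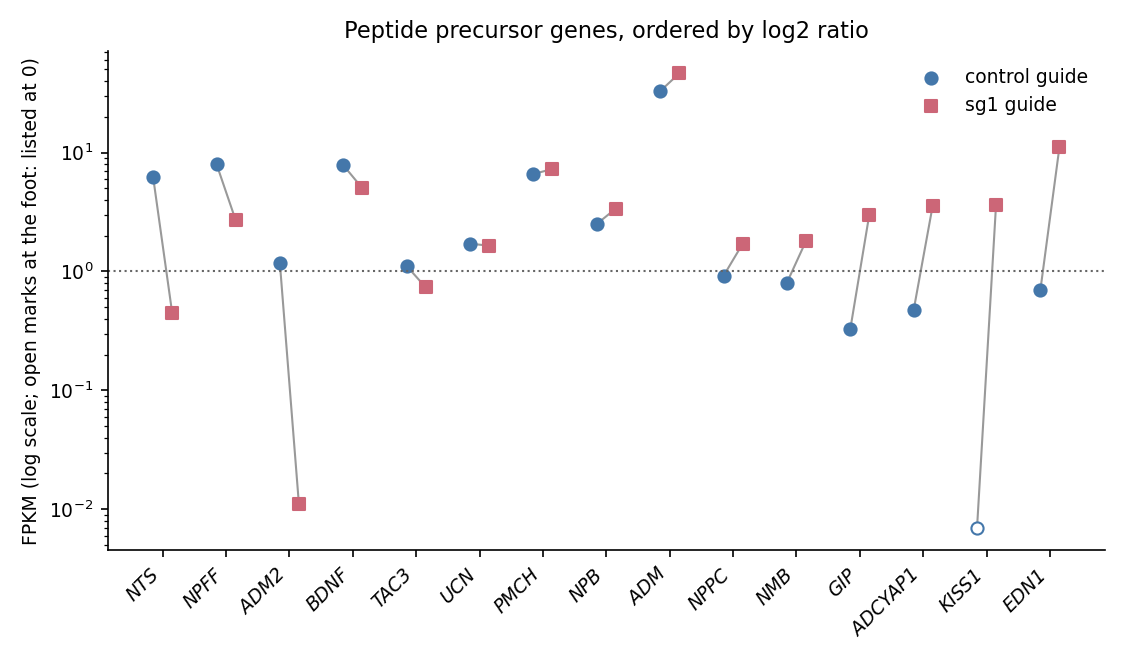
FPKM (log axis) of the 15 tested peptide precursor genes in the control library (circles) and the sg1 library (squares), ordered by log2 ratio; the open mark is a value listed at 0, and the dotted line marks 1 FPKM. NTS goes from 6.22 to 0.451 at the left end and EDN1 from 0.703 to 11.1 at the right end, and ADM is the highest in both libraries.

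The machinery that builds and releases dense-core vesicles was present in part, and its genes lay on both sides of 0. Of 46 listed genes 30 were tested, 2 higher and none lower past 2-fold, with 16 ratios above 0, 14 below and a median of 0.07. UNC13A, which primes vesicles for fusion, had 4.05 FPKM in the control against 9.78 in the sg1 library (log2 1.09, and 0.71 with a pseudocount of 5 FPKM). RIMS2, a scaffold of the release site, was at 26.3 and 45.8 FPKM, and RAB26, a small GTPase of secretory granules, at 4.86 and 9.87. CPLX1, complexin 1, which clamps and promotes fusion, was at 6.64 and 3.77. RAB2A, a small GTPase of vesicle maturation, was the most abundant member in the control, at 40.4 and 34.1. SNAP25 and CADPS did not reach 1 FPKM in either library.

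Of 22 listed transcription regulators of neuroendocrine genes 9 were tested, 1 was at least 2-fold lower and none was higher past 2-fold. In all, 8 of the 9 ratios were below 0, where 6514 of the 11970 tested genes were below 0, and the median was −0.57. The 8 of 9 held under the 4 scalings tried. RCOR2, a corepressor of the REST complex, had 58.8 FPKM in the control against 20.0 in the sg1 library (log2 −1.51). REST itself, which silences neuronal genes in other cells, was at 13.6 and 10.7, and RCOR1 at 23.7 and 15.7. The CREB coactivators CRTC1 and CRTC3 were at 4.33 and 11.1 in the control against 2.31 and 5.38, and CREM, a relative of CREB1, was at 33.0 and 18.0. PAX6, an endocrine and neural factor, was the single member above 0, at 0.269 and 1.35 FPKM, 5.02-fold higher without the pseudocount.

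Receptors for neuropeptides were mostly not expressed, and 6 of 38 listed receptors and sorting receptors were tested, with 1 higher, none lower and a median of 0.05. PTH1R, the receptor of parathyroid hormone and its related peptide, had 0.931 FPKM in the control against 2.92 in the sg1 library (log2 1.02, and 0.42 with a pseudocount of 5 FPKM). CALCRL, which forms the receptor of adrenomedullin with a RAMP partner, was at 1.62 and 0.328 (log2 −0.98). SORT1, which binds neurotensin and sorts lysosomal proteins, was at 11.9 and 10.8, and M6PR, a sorting receptor for lysosomal enzymes, was the highest of the list at 77.2 and 89.7. Taking all pathway lists as 1 group, 95 of 232 genes were tested, 9 were higher (9.47%) and 5 lower (5.26%) past 2-fold, beside 4.25% and 4.51% of all tested genes. The median was 0.10, beside −0.05 over all tested genes. Of the 9 higher genes, the 4 precursors, CPQ and PTH1R reached 1 FPKM in the sg1 library only. Of the 5 lower genes, NTS and ADM2 reached it in the control only. These shares thus depend on the limit for testing.

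By its pair of levels, CPE was nearest to CHAC1, DLX1, TRIB3, SHOX2 and CDH1. Likeness was the Euclidean distance between the pairs of log2(FPKM + 1) over the 2 libraries, which says no more than that the levels in each were similar. CHAC1, an enzyme that degrades glutathione, was at a distance of 0.81, with 83.8 and 3.18 FPKM. The homeobox genes DLX1 and SHOX2 were at 48.5 and 74.0 FPKM in the control against 3.48 and 5.70, at distances of 1.43 and 1.50. TRIB3, a pseudokinase of the stress response, and CDH1, E-cadherin, were at distances of 1.46 and 1.76.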

How the data were processed

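RNA was measured in 2 samples of G401, grouped by the guide in the sample titles. Per the labels' protocols, total RNA was extracted at 80% confluency, enriched with a RiboMinus kit and made into libraries with an Ion PI kit. The tools were Cufflinks, TopHat and Bowtie on hg19, per the submitters' processing notes; their versions, the annotation and the strandedness are not given in the sources used here. The authors deposited 1 table of FPKM per library with 25001 rows, where 0.001 stood for 0, and without read counts. Values marked as failed (2 rows in the control, 3 in the other table, no member) were left out, and rows that share a symbol were summed. All 10 members were on 1 row each. The members and lists were chosen with earlier results of these data known. No test was run, since each group had 1 library.

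Genes were named by a rule: all members, in each list the genes past 2-fold or, failing those, up to 4 with the largest ratios, the highest of each list, and the 5 genes nearest to CPE. RAB2A, SCG3, SNAP25, CADPS, ANPEP, PREP, BDNF, PMCH, REST, RCOR1 and some further list members that stayed within 2-fold were named outside it after their values were seen, as were the neighbours of CPE. Some genes that the rule named are left out of the text. Older symbols were matched for 4 list genes (CTSL1 among them).

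Depth came from 2524 genes below 0.3 FPKM, of which 324 shared the ratio 1.02, sg1 over control FPKM for 1 read. Of 143 single-exon genes 94 (65.7%) gave whole reads within 0.03 when 200 nt were subtracted from the length, the setting with the most matches. Reads per gene used the longest coding transcript of GENCODE 29 (another build, lengths only) and are approximate, and intervals are Clopper-Pearson at 95% and cover counting error only. Alternatives were 2 pseudocounts, 4 scalings, 2 filters and the highest row of a symbol. The calculation was tested on simulated data. Python 3.11.15 was used with scipy 1.17.1, numpy 2.4.6, matplotlib 3.10.9 and pandas 2.3.3.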

Additional observations from a re-analysis of the deposited data

How the results depend on the processing

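CPE stayed the only tested member past 2-fold under all 9 alternatives. CHGA, under 1 FPKM in both libraries and so not tested, was at a log2 ratio of −1.11 with a pseudocount of 0.1 FPKM. The log2 ratio of CPE was −6.06 with a pseudocount of 0.1 FPKM and −4.14 with 5 FPKM, while 4 scalings and the choice of row moved it by less than its counting error. Over all pathway lists, 5 genes were lower and 9 higher in the setting reported. With a pseudocount of 0.1 FPKM 9 were lower and 12 higher, with 5 FPKM 2 were lower and 3 higher, and with a minimum of 5 FPKM 4 were higher, because fewer genes were tested. CPQ, ADCYAP1, ADM2, GIP, KISS1 and PTH1R were past 2-fold neither with the pseudocount of 5 FPKM nor with that minimum, and CTSL1, NPFF and UNC13A were within 2-fold with that pseudocount. With 0.1 FPKM, PCSK4, ACE, CRTC3 and CALCRL were lower and NMB, RAB26 and PAX6 higher past 2-fold. Over all tested genes the pseudocount of 0.1 FPKM gave 849 lower and 731 higher, that of 5 FPKM 221 and 236, against 540 and 509. With no replicates, a difference between 2 cultures that has nothing to do with the guide cannot be told apart from one due to it. No paired analysis was possible because each group had 1 library.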
